A study of Homo sapiens with 46 samples.

Results

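Aminoacyl-tRNA synthetases are the enzymes that join each amino acid to its transfer RNA (tRNA), the step that makes the genetic code readable by the ribosome. Human cells keep a cytosolic set, which charges tRNAs for translation in the cytoplasm, and a largely separate mitochondrial set, which is encoded in the nucleus and serves the small translation system inside mitochondria. GARS1 (glycine) and KARS1 (lysine) supply both compartments from 1 gene each, and a group of cytosolic enzymes is held with the scaffold proteins AIMP1, AIMP2 and EEF1E1 in the multi-synthetase complex. Many cytosolic synthetase genes are known targets of ATF4, the transcription factor of the amino acid response, which acts through C/EBP-ATF response elements in promoters.

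The genes were chosen by symbol: a 1-letter amino acid code followed by ARS, with or without a number, and EPRS1, FARSA and FARSB. The rule found 38 genes among the 10707 Ensembl genes shared by the count tables of all 4 cell types. Of these, 20 are cytosolic (GARS1 and KARS1 included), 17 are mitochondrial (names ending in 2), and TARS3, a threonyl-tRNA synthetase paralogue of TARS1, was kept apart. All 38 passed the filter on low counts and were tested in each of the 16 comparisons; the lowest count of any of them in any library was 18.

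The libraries came from H1, an established human pluripotent stem cell line, so every group carries 1 genetic background. Undifferentiated cells (hPSC) were kept in mTeSR1 on Matrigel. Endoderm was made in RPMI with WNT3A and Activin A, mesoderm in DMEM/F12 with VEGF, BMP4, bFGF and, at the start, Activin A, and ectoderm in DMEM/F12 with knockout serum replacement and the inhibitors A83-01, PNU-74654 and Dorsomorphin; differentiation lasted 5 days. The 3 differentiation media also contained non-essential amino acids and β-mercaptoethanol, so medium and lineage cannot be told apart. Each culture was separated with detergent and sucrose, in buffers holding α-amanitin, into cytoplasm and nucleus, and nuclei further into nucleoplasm and chromatin with urea. There were 46 libraries in 16 groups, with 3 repeats each and 1 in mesoderm nucleoplasm, which entered no test between groups. The labels do not say whether repeats were separate cultures, so p-values measure the spread between these libraries.

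Library totals ran from 4990408 to 21298678 counts. The 45 pairs of repeats were all distinct, with correlations from 0.936 to 0.994. Endoderm nucleus repeat 1, ectoderm nucleus repeat 2, hPSC chromatin repeat 3, hPSC cytoplasm repeat 1 and mesoderm chromatin repeat 3 stood apart from the other repeats of their groups. By a chi-square over genes, per degree of freedom, ectoderm chromatin repeat 2 also did (35.3 and 38.2, against 4.22 between the others). So did ectoderm cytoplasm repeat 2 (49.6 and 55.8, against 17.9). Lineage markers were present in part. Ectoderm cytoplasm held 6 of 8 ectoderm markers (SOX1 and HES5 absent, PAX6 at 112 TPM, transcript abundance scaled for length and library), endoderm 8 of 8 (SOX17 79.8 TPM) and mesoderm 4 of 8 (MESP1, KDR, GATA4 and FOXF1 absent, HAND1 102 TPM of a summed 106). The mesoderm list was not particular to mesoderm: endoderm cytoplasm held 7 of its 8 markers, at a summed 129 TPM (GATA4 75.7, HAND1 43.1). The pluripotency factor POU5F1 was 2540 TPM in hPSC cytoplasm, 6.35 in ectoderm, 890 in mesoderm and 1655 in endoderm. Markers of purity went against the fraction labels in places: MALAT1, a nuclear RNA, was 26.7 TPM in cytoplasm and 13.0 in nucleus of hPSC and 268 against 30.6 in ectoderm. Mitochondrial MT-CO1 was 43703 TPM in hPSC nucleus and 1156 in cytoplasm, but 6998 and 16911 in mesoderm. The part of these differences in the results was not tested, and in bulk RNA fewer cells of a type and less RNA per cell cannot be told apart.

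Promoter matches are shown first, as a description of the genes. TARS1 and CARS1, the genes that fell most in ectoderm cytoplasm, each hold one, and WARS1, which fell next, holds none. RefSeq windows from 250 bases before to 50 bases after the start site (GRCh38.p14) were available for 30 of the 38 genes and were searched on both strands for TGATGNAA, the core of the C/EBP-ATF response element. Each line gives the gene, then 28 bases along the gene's strand, with the match in capitals. TARS1 (chr5:33440957-33440984, plus strand), CARS1 (chr11:3057408-3057435, minus), MARS1 (chr12:57488054-57488081, plus), IARS1 (chr9:92293693-92293720, minus), AARS1 (chr16:70289676-70289703, minus), GARS1 (chr7:30594835-30594862, plus) and NARS1 (chr18:57621805-57621832, minus) are cytosolic, and YARS2 (chr12:32756077-32756104, minus) is the single mitochondrial gene with a match.
TARS1: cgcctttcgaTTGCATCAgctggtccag
CARS1: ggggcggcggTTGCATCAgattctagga
MARS1: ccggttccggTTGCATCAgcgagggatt
IARS1: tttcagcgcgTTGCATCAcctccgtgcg
AARS1: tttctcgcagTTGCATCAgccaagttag
GARS1: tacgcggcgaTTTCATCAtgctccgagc
NARS1: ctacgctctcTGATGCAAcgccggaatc
YARS2: tccacactgcTGATGGAAaaattaagtt

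A match was found in 7 of 16 cytosolic genes with a window (43.8%) and in 1 of 14 mitochondrial genes (7.14%). Among all 27305 RefSeq genes with a window, 1217 (4.46%) held one, as did 1270 of 35116 windows (3.62%). In TARS1, CARS1, MARS1, IARS1 and AARS1 the match read TTGCATCA along the gene's strand, and NARS1 held the same 8 bases on the other strand. It lay at the start site or within 50 bases of it in 6 of the 7, and upstream in AARS1, from base -187 to base -180. A match is a string of letters and not a measured binding site.

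The first question was how lineage changes these genes in cytoplasm, where translation takes place. In ectoderm cytoplasm all 20 cytosolic synthetases differed from hPSC: 19 fell and QARS1 rose, with a median log2 change of -1.13 against 0.01 over all genes. Of all 38, 33 were called (adjusted p under 0.05, edgeR quasi-likelihood F test), 4 higher and 29 lower, where 75.9% of the 10679 genes tested were called, 37.9% of them lower and 38% higher. The share called, 86.8%, is not far above that of all genes, while 29 of the 33 were lower. The other lineages were compared with the same hPSC libraries. In mesoderm cytoplasm 19 cytosolic genes fell and QARS1 rose, with a median of -0.99 and 32 of 38 called (2 higher, 30 lower; background 68%, with 34.6% higher and 33.4% lower). In endoderm cytoplasm 13 cytosolic genes fell and RARS1 rose, with a median of -0.40 and 18 of 38 called (2 higher, 16 lower; background 58.1%, with 29.6% higher and 28.6% lower).

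**Figure D1:**
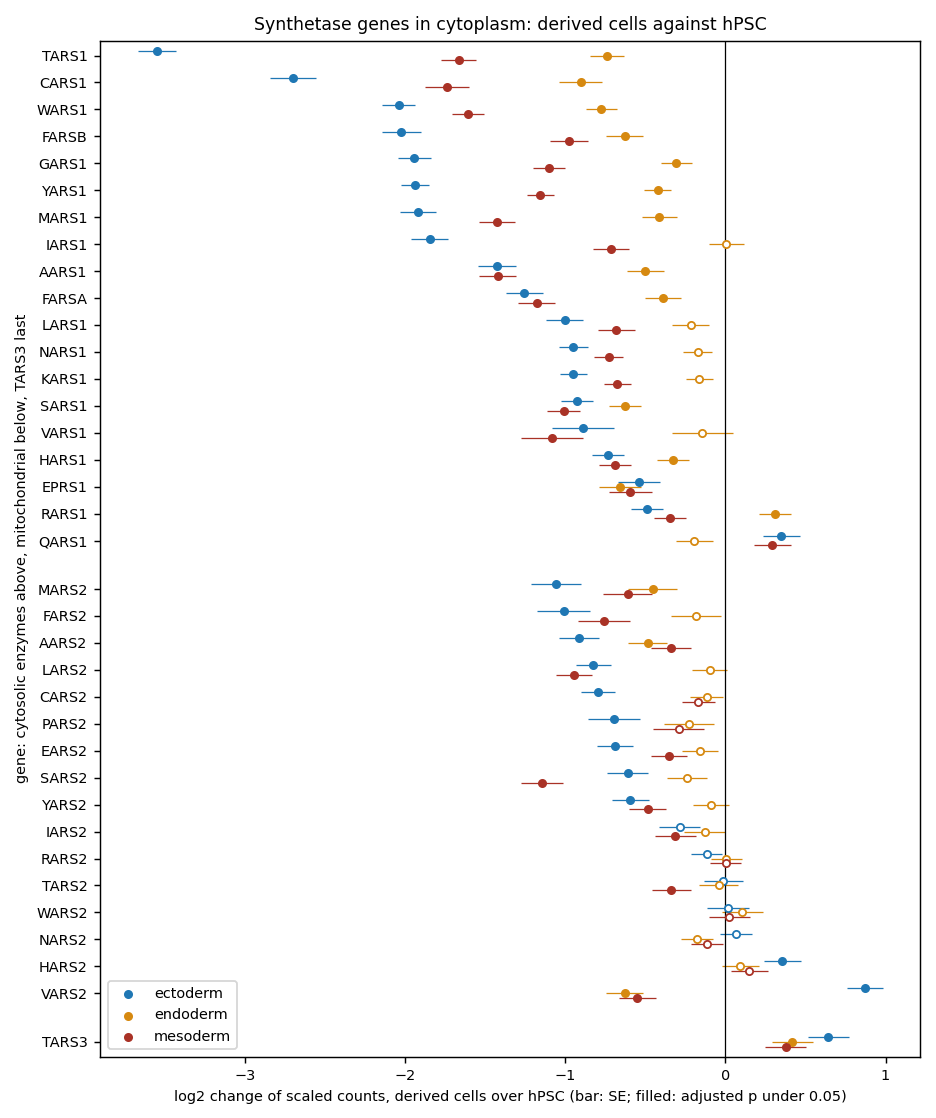
Log2 change against hPSC cytoplasm (horizontal axis) for 36 synthetase genes in ectoderm, endoderm and mesoderm, with bars of 1 standard error and filled points for adjusted p under 0.05. The cytosolic genes lie to the left of 0 in ectoderm and mesoderm apart from QARS1, and TARS1 lies farthest left in ectoderm at -3.55.

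TARS1, the cytosolic threonyl-tRNA synthetase (ENSG00000113407, chr5:33440696-33469539, plus strand), fell most in ectoderm, while CARS1 fell slightly more in mesoderm and CARS1 and WARS1 slightly more in endoderm. In CPM, counts scaled to library size by the TMM method, its cytoplasm values were 353, 438 and 410 in hPSC, 36.7, 34.9 and 30.9 in ectoderm, 125, 123 and 131 in mesoderm, and 213, 261 and 245 in endoderm. All libraries of the 3 lineages lay below all hPSC libraries, and the ectoderm values lay far below those of the other lineages. The log2 change was -3.55 ± 0.12 (SE, n = 3 and 3; edgeR adjusted p = 7.43e-12), or 11.7-fold lower, in ectoderm. It was -1.67 ± 0.11 in mesoderm (edgeR adjusted p = 6.4e-09) and -0.74 ± 0.11 in endoderm (edgeR adjusted p = 3.79e-05).

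CARS1, the cysteinyl-tRNA synthetase (chr11:3000922-3057613), and WARS1, the tryptophanyl-tRNA synthetase (chr14:100333788-100376805), were the other 2 with the largest falls in each lineage. CARS1 was 123, 149 and 133 CPM in hPSC, 21, 19.8 and 21.5 for ectoderm, 55.6, 78.5 and 82.7 for endoderm, and 43.5, 37.7 and 40.2 for mesoderm. Its log2 changes were -2.70 ± 0.14, -0.90 ± 0.13 and -1.74 ± 0.14 in that order (edgeR adjusted p = 3.76e-10, 4.67e-05 and 4.66e-08). WARS1 was 278, 284 and 282 CPM in hPSC and 68.6, 68.1 and 68.4 in ectoderm, which hardly varied between repeats, with 137, 179 and 177 in endoderm and 94.3, 89.3 and 92.9 in mesoderm. Its log2 changes were -2.04 ± 0.10, -0.78 ± 0.10 and -1.61 ± 0.10 (edgeR adjusted p = 2.13e-10, 1.15e-05 and 3.88e-09). Neither gene's lineage libraries overlapped those of hPSC. WARS1 shares 10.6% of its exon bases with genes on either strand, and whether the counting used strand is not given in the sources used here.

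**Figure D2:**
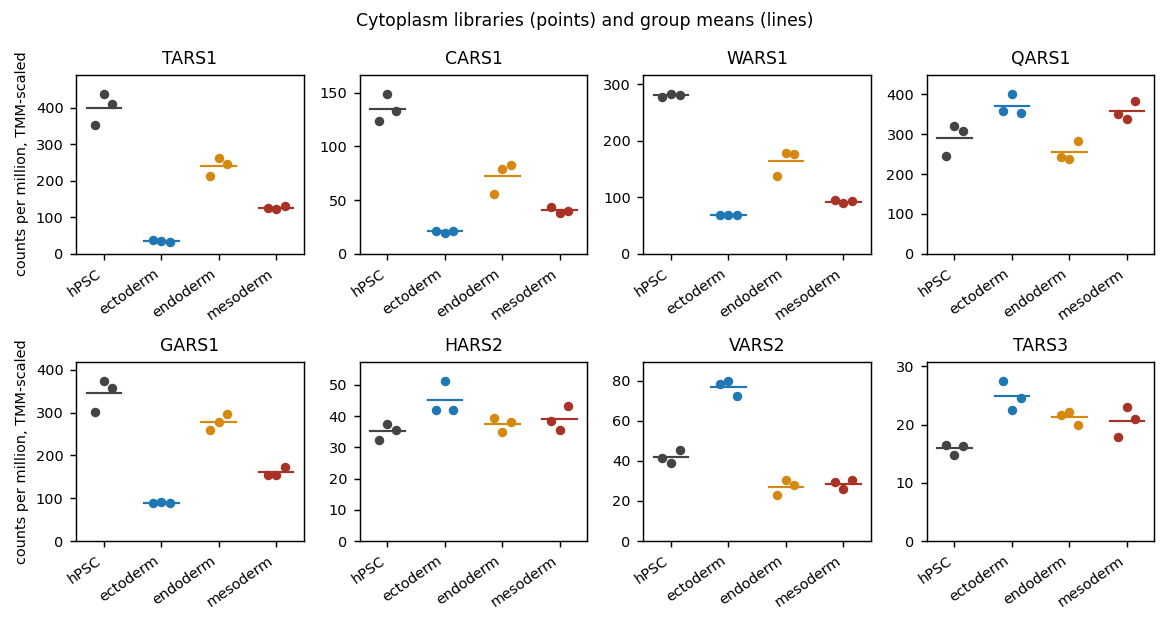
Scaled CPM in each cytoplasm library (points) for TARS1, CARS1, WARS1, QARS1, GARS1, HARS2, VARS2 and TARS3, 1 panel a gene, with the 4 cell types on the horizontal axis. TARS1, CARS1 and WARS1 are highest in hPSC and lowest in ectoderm, while QARS1 and VARS2 are highest in ectoderm.

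QARS1, the glutaminyl-tRNA synthetase, ran the other way. It was 245, 321 and 308 CPM in hPSC, 358, 402 and 354 in ectoderm and 350, 339 and 383 in mesoderm. Its lowest ectoderm and mesoderm libraries were above the highest hPSC library, by small margins. The changes were 0.35 ± 0.11 (edgeR adjusted p = 0.0123) and 0.29 ± 0.11 (edgeR adjusted p = 0.0343). The mesoderm call was lost without hPSC cytoplasm repeat 1 (log2 change 0.14), without any 1 of the mesoderm repeats and on total counts (0.26), and the ectoderm call without ectoderm repeat 2 (0.29). In endoderm QARS1 was 244, 238 and 282 CPM, inside the hPSC range, with a log2 change of -0.19 that did not pass. RARS1, the arginyl-tRNA synthetase, was the single cytosolic gene that rose in endoderm (165, 163 and 144 CPM against 111, 138 and 131; 0.31 ± 0.10, edgeR adjusted p = 0.0148), and it fell in ectoderm (-0.49) and mesoderm (-0.35). The endoderm call was lost without hPSC cytoplasm repeat 1 (0.17) and without endoderm repeat 1 (0.27).

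The synthetases of the multi-synthetase complex did not move as 1 unit: QARS1 rose in ectoderm and mesoderm while others fell. MARS1 (methionine) fell by 1.92 and 1.43 on the log2 scale, IARS1 (isoleucine) by 1.85 and 0.71, LARS1 (leucine) by 1.00 and 0.68, KARS1 by 0.95 and 0.68, and EPRS1 (glutamate and proline) by 0.54 and 0.59. In endoderm EPRS1 (-0.66) and MARS1 (-0.41) fell, RARS1 rose, and IARS1, KARS1, LARS1 and QARS1 did not pass. MARS1 shares 13.3% of its exon bases with other genes, among them DDIT3 on the opposite strand. The scaffold genes AIMP2 and EEF1E1 fell in all 3 lineages, AIMP2 by 2.33, 0.59 and 1.33 and EEF1E1 by 1.77, 0.81 and 1.37 in ectoderm, endoderm and mesoderm. AIMP1, the third scaffold gene, rose in ectoderm (0.47) and did not pass in endoderm (-0.03) or mesoderm (0.22).

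Both genes that serve the 2 compartments lay on the falling side. GARS1 was 302, 374 and 359 CPM in hPSC and 89, 91.3 and 88.5 in ectoderm, with no overlap. It fell by 1.94 in ectoderm, 1.10 in mesoderm and 0.31 in endoderm. KARS1 was 260, 289 and 289 CPM in hPSC and 141, 151 and 142 in ectoderm, and its endoderm change of -0.16 did not pass.

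Set by promoter match, the 7 cytosolic genes with TGATGNAA had a median log2 change of -1.92 in ectoderm cytoplasm (range -3.55 to -0.95). The 9 whose window lacked it had a median of -0.93 (range -2.04 to 0.35), and the 4 with no window -0.95. The corresponding medians were -1.42, -0.69 and -0.91 in mesoderm and -0.41, -0.39 and -0.32 in endoderm. The ranges overlap in every lineage: WARS1, with no match, fell more than GARS1 in ectoderm. On chromatin the medians with and without a match were -1.25 and -0.90 in ectoderm, but -0.26 and -0.63 in endoderm and -0.31 and -0.42 in mesoderm, where the median of the matched genes was nearer to 0. These medians are a description with no test.

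Genes of the amino acid response also fell in cytoplasm. Of the list's 20 genes 16 were in all 4 tables and tested. All 16 fell in ectoderm (median -1.78), 12 fell and 2 rose in endoderm (median -0.68), and 12 fell and 2 rose in mesoderm (median -0.97). Of all genes 75.9% were called in ectoderm (37.9% lower), 58.1% in endoderm (28.6% lower) and 68% in mesoderm (33.4% lower). Whether these genes and the synthetases fell for a shared reason was not tested. ASNS, the asparagine synthetase, fell by 3.43, 0.90 and 1.51 in ectoderm, endoderm and mesoderm, PSAT1, of serine synthesis, by 2.39, 1.11 and 1.99, and the pathway's feedback inhibitor TRIB3 by 3.81, 1.74 and 1.96. CHAC1, a glutathione-degrading enzyme, fell by 6.47, 2.12 and 3.42. ATF4 itself fell by 1.03 in ectoderm, with changes of -0.13 in endoderm (not passing) and -0.31 in mesoderm. The exceptions that rose were the amino acid transporter subunits SLC7A5 (2.10) and SLC3A2 (0.55) in endoderm, and SLC7A5 (1.06) and the lipoprotein receptor VLDLR (0.59) in mesoderm. Of the list's 17 genes with a promoter window 5 held TGATGNAA (29.4%: ASNS, ATF3, CEBPG, CHAC1 and SLC3A2). The 3 proofreading genes, which clear wrongly charged tRNAs, all fell in ectoderm, and AARSD1 and DTD1 also fell in endoderm and mesoderm (AARSD1 by 1.37, 0.80 and 1.16).

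Mitochondrial synthetases had medians nearer to 0, and a smaller share of them was called than of the cytosolic class. In ectoderm cytoplasm 10 of 17 fell and 2 rose (median -0.61), in mesoderm 11 fell and none rose (median -0.34), and in endoderm 3 fell and none rose (median -0.16). Of all genes 75.9% were called in ectoderm, 68% in mesoderm and 58.1% in endoderm. The mitochondrial counts were thus near the share of all genes in ectoderm and mesoderm and far below it in endoderm. The difference between the classes was not tested. MARS2, the mitochondrial methionyl-tRNA synthetase, was 26.2, 26.4 and 22.6 CPM in hPSC and 14.1, 11.7 and 10.2 in ectoderm, without overlap. It fell by 1.06 ± 0.16 (edgeR adjusted p = 1.77e-05). FARS2 also fell (-1.01). The 5 mitochondrial genes that did not pass in ectoderm, named after their values were seen, were IARS2, NARS2, RARS2, TARS2 and WARS2, between -0.29 and 0.06.

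VARS2, the mitochondrial valyl-tRNA synthetase (chr6:30908242-30926459, plus strand), rose in ectoderm, from 41.5, 39.2 and 45.3 to 78.5, 79.9 and 72.2 CPM, and every ectoderm library was above every hPSC library. The change was 0.87 ± 0.11 (edgeR adjusted p = 5.52e-06). It fell in endoderm (23.1, 30.4 and 28 CPM; -0.63) and in mesoderm (-0.55). VARS2 shares 22% of its exon bases, mostly with GTF2H4 on the same strand, and on Ensembl-listed transcripts alone the ectoderm change of 1.22 did not pass (edgeR adjusted p = 0.147). HARS2 (histidine) rose in ectoderm from 32.3, 37.5 and 35.7 to 42.1, 51.2 and 42 CPM (0.36 ± 0.12, edgeR adjusted p = 0.0112), a call lost without ectoderm repeat 2 (0.25) or on Ensembl-listed transcripts (0.17).

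In mesoderm the largest mitochondrial falls were in SARS2 (serine; 64.8, 61.9 and 62.6 to 26.6, 25.1 and 34 CPM), LARS2 (leucine; 47.6, 53.1 and 57.2 to 26.4, 27.4 and 28.5 CPM) and FARS2 (phenylalanine; -0.76). None of the 3 overlapped between groups, and the LARS2 change was -0.95 ± 0.11 (edgeR adjusted p = 3.21e-06). SARS2 shares 57% of its exon bases with other genes, so its value is uncertain. In endoderm the 3 falls were VARS2, AARS2 (-0.48) and MARS2 (-0.46). The VARS2 and MARS2 calls were lost with the authors' TPM (-0.31 and -0.17), and that of MARS2 also without endoderm cytoplasm repeat 1 (-0.34). MT-CO1, a transcript of the mitochondrial genome, had cytoplasm log2 changes of 1.55, -0.63 and 3.63 in ectoderm, endoderm and mesoderm, whose part in these values was not tested. QRSL1, a subunit of the enzyme that makes mitochondrial glutaminyl-tRNA, fell by 0.67, 0.53 and 0.85, and the other 3 amidation and formylation genes passed in no lineage except GATB (-0.86) and MTFMT (-0.45) in ectoderm.

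TARS3 rose in all 3 lineages. Its cytoplasm values were 16.6, 14.8 and 16.4 CPM in hPSC, 27.5, 22.5 and 24.5 for ectoderm, 21.7, 22.2 and 19.9 for endoderm and 17.8, 23.1 and 20.9 for mesoderm. The lowest lineage library, at 17.8, lay just above the highest of hPSC. The changes were 0.64 ± 0.13, 0.42 ± 0.13 and 0.38 ± 0.13 (edgeR adjusted p = 3.36e-04, 0.0122 and 0.0187). The endoderm and mesoderm calls were lost without hPSC cytoplasm repeat 2 (0.32 and 0.29), and that in mesoderm also without mesoderm repeat 2 (0.25) or 3 (0.33).

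Per transcript length, the order of the genes changed with lineage. In hPSC cytoplasm the highest TPM were those of AARS1 (155 ± 40.8, SD, n = 3), TARS1 (143 ± 32.2), YARS1 (141 ± 25), KARS1 (137 ± 26.5), GARS1 (136 ± 31.2) and SARS1 (130 ± 15.5), neighbours that do not differ beyond their spread. The lowest were AARS2 (6.79), WARS2 (5.58) and TARS3 (4.45). In ectoderm QARS1 led at 181 ± 18.6, above KARS1 (86.4 ± 11.4) and SARS1 (85.5 ± 10.5) in every library, and TARS1 was 27th of 38 at 15.2 ± 2.49. QARS1 also led in mesoderm (163 ± 8.57, then KARS1 97.6), whereas KARS1 (145 ± 3.83), GARS1 (130) and AARS1 (130) led in endoderm. AARS2 was last in ectoderm (3.36), endoderm (4.31) and mesoderm (5.4).

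In hPSC cytoplasm each of the 18 pairs of cytosolic and mitochondrial genes for the same amino acid (with EPRS1 set against EARS2 and PARS2, and FARS2 against FARSA and FARSB) had the cytosolic gene higher in all 3 libraries. In ectoderm cytoplasm 15 pairs did. The exceptions, named after their values were seen, were threonine (TARS1 15.2 TPM, TARS2 20.7), cysteine (CARS1 9.57, CARS2 16.2) and FARSB (4.36) against FARS2 (4.87). In hPSC, TARS1 had stood at 143 against 16.9 TPM for TARS2. FARSB is a case where the scales differ: its counts fell 2.03 on the log2 scale in ectoderm, yet its TPM went from 31.7 to 4.36, and TPM also depends on which transcripts each assembly holds.

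Summed TPM of the cytosolic class in cytoplasm was 1834 ± 366 in hPSC, 965 ± 134 in ectoderm, 1113 ± 97.5 in mesoderm and 1713 ± 61.8 in endoderm (SD, n = 3). The ectoderm and mesoderm libraries (812 to 1216) all lay below the hPSC range of 1415 to 2090, and endoderm lay inside it. The mitochondrial class was 275 ± 35.4, 258 ± 34.9, 244 ± 17.5 and 305 ± 4.55 in the same order, and the libraries of each lineage overlapped those of hPSC. The ratio of the class sums was 6.64 ± 0.57 in hPSC, 3.74 ± 0.05 in ectoderm, 4.56 ± 0.15 in mesoderm and 5.63 ± 0.23 in endoderm. It was lowest in ectoderm chromatin, at 2.04 ± 0.07.

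**Figure D3:**
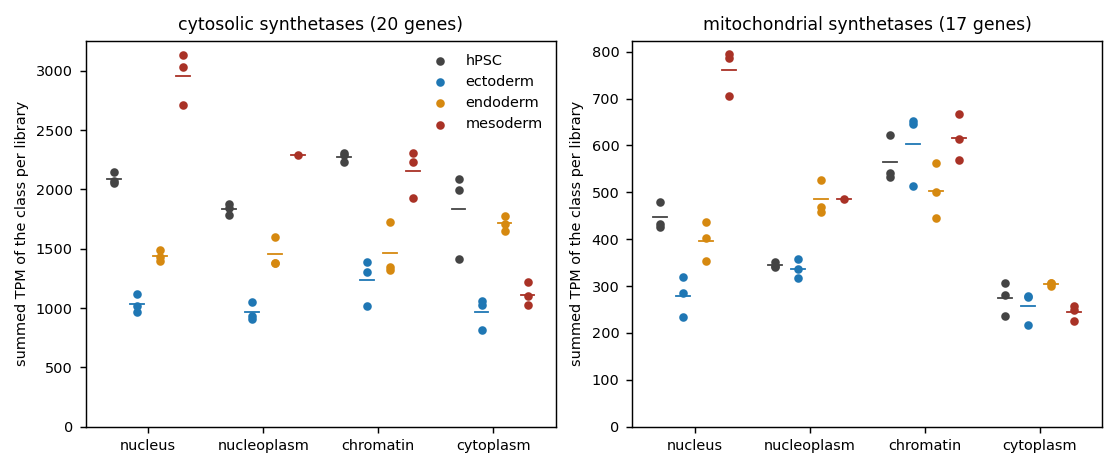
Summed TPM of the 20 cytosolic and 17 mitochondrial genes in every library (points), by fraction and cell type. In cytoplasm the cytosolic sums of ectoderm and mesoderm lie below those of hPSC, and in nucleus mesoderm is highest (mean 2960).

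The chromatin fraction is meant to hold RNA still attached to genes. The nuclear control RNAs MALAT1, NEAT1 and KCNQ1OT1, where tested, often leaned to nucleoplasm rather than chromatin. In hPSC both that were tested were called lower on chromatin (log2 change -2.90 and -2.82). In ectoderm all 3 were on the lower side (-1.65 to -0.16, 1 called), and in endoderm 1 was called lower (-1.55) and 1 higher (1.40). The part of this in the chromatin results was not tested. On chromatin, ectoderm showed the same direction as in cytoplasm. Of 38 genes 30 were called against hPSC (3 higher, 27 lower; background 62.9%, with 30.5% higher and 32.4% lower), 18 of 20 cytosolic genes fell and none rose (median -1.18), and 9 mitochondrial genes fell and 2 rose (median -0.40). TARS1 was 267, 259 and 139 CPM in hPSC chromatin and 23.3, 25 and 22.8 in ectoderm chromatin. The ectoderm values sit close together, and hPSC repeat 3, a library that stood apart, is nearest to them. The log2 change was -3.23 ± 0.27 (edgeR adjusted p = 3.01e-07). WARS1 (-2.11) and YARS1 (tyrosine; -1.91) followed.

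In endoderm and mesoderm the chromatin changes were fewer: 20 called in endoderm (2 higher, 18 lower; background 61.8%, with 28.9% higher and 33% lower) and 18 in mesoderm (5 higher, 13 lower; background 54.5%, with 27.1% higher and 27.4% lower). Both totals are below the share of all genes called. Cytosolic medians were -0.48 in each. WARS1 fell in both (-1.61 and -1.09), as did KARS1 (-1.41 and -0.80; the mesoderm call was lost with TPM, at -0.53). RARS1 rose in mesoderm, at 90.2, 78.3 and 111 CPM against 71.9, 71 and 39.4 in hPSC (0.62), a call lost without hPSC chromatin repeat 3 (0.38) or mesoderm chromatin repeat 3 (0.47). Scaled from the authors' TPM, mesoderm chromatin gave 8 calls, 5 higher and 3 lower.

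HARS2 was called higher on chromatin in all 3 lineages. It was 34.4, 31 and 42.2 CPM in hPSC, 80, 86.8 and 88.2 for ectoderm, 63.5, 61.8 and 55.4 for endoderm and 81.2, 79.2 and 52.6 for mesoderm, so no lineage library reached down to the hPSC range. The changes were 1.25 ± 0.19, 0.75 ± 0.18 and 0.98 ± 0.19 (edgeR adjusted p = 5.21e-05, 0.00314 and 5.68e-04). On Ensembl-listed transcripts alone those of ectoderm (0.49) and mesoderm (0.24) did not pass, and HARS2 shares 15.8% of its exon bases, 437 of them with HARS1 on the opposite strand. IARS2 (isoleucine) was higher on chromatin in endoderm (0.54) and mesoderm (0.44), and neither call was stable. The endoderm call was lost without endoderm chromatin repeat 1 (0.41) and with TPM (0.32). The mesoderm call was lost without hPSC chromatin repeat 2 (0.46) or 3 (0.34) and without mesoderm chromatin repeat 3 (0.30). It was also lost with a block for the repeat number (0.45). TARS3 was 13.9, 17.2 and 10.8 CPM in hPSC chromatin and 36.2, 35.9 and 29 in ectoderm chromatin (1.27 ± 0.21, edgeR adjusted p = 1.14e-04), and it rose in mesoderm too (0.69). On Ensembl-listed transcripts alone the ectoderm change of TARS3 was 0.28 and did not pass (edgeR adjusted p = 0.269).

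The second question was where in the cell these transcripts lie. The columns of the nucleus libraries were matched to their samples by elimination, since their fraction code is the 1 left once the other 3 are read, and every nucleus value rests on that match. Fractions are scaled to equal totals, so higher and lower mean relative to the other RNAs of a fraction, and the split of calls moved with the scaling, as given for each. In hPSC 31 of 38 genes differed between cytoplasm and nucleus (20 higher in cytoplasm, 11 lower; background 65.7%, with 35.6% higher and 30% lower), with medians of 0.60 for the cytosolic and 0.24 for the mitochondrial class against 0.11 for all genes. With the authors' TPM the split was 8 higher and 13 lower. In ectoderm 24 differed (6 higher, 18 lower, background 53.5%, with 28.7% higher and 24.8% lower), which became 12 and 8 on total counts and 6 and 4 with TPM. The 4 cytoplasmic mRNA controls GAPDH, ACTB, EEF1A1 and RPLP0 also had negative log2 ratios in ectoderm (-0.69 to -0.29), with 2 called lower in cytoplasm. In hPSC all 4 were called higher in cytoplasm (0.94 to 1.56), as were 3 in endoderm and 4 in mesoderm. The part of this in the synthetase calls was not tested. In endoderm 28 differed (15 higher, 13 lower; background 69.8%, with 34.3% higher and 35.5% lower), or 25 and 7 on total counts and 20 and 8 with TPM. In mesoderm 20 differed (7 higher, 13 lower; background 63.3%, with 32.1% higher and 31.2% lower), or 0 and 33 with TPM, where the median of all genes shifted by -0.90, and 2 and 15 on Ensembl-listed transcripts.

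**Figure D4:**
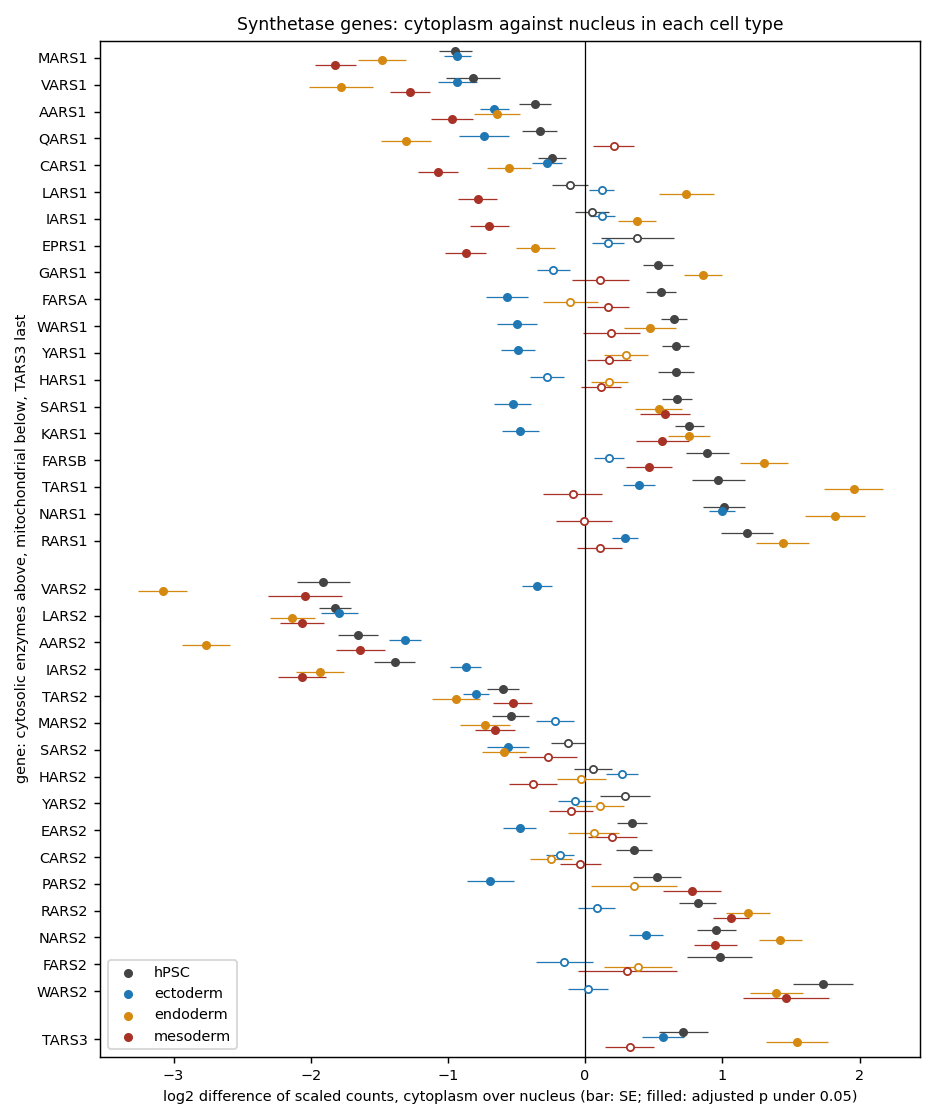
Log2 ratio of cytoplasm to nucleus for 36 synthetase genes in the 4 cell types, with bars of 1 standard error and filled points for adjusted p under 0.05. LARS2, AARS2 and VARS2 lie left of 0 in every cell type, and NARS1 lies right of 0 in hPSC, ectoderm and endoderm.

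By the edgeR fit, some genes kept 1 side in every cell type. Called lower in cytoplasm than in nucleus in all 4 were MARS1, VARS1, AARS1 and CARS1 of the cytosolic class and LARS2, IARS2, AARS2, VARS2 and TARS2 of the mitochondrial class. The AARS1 call in hPSC was lost on total counts (-0.23) and the IARS2 call in ectoderm with TPM (-0.57). In TPM, CARS1 did not differ in ectoderm (9.57 in cytoplasm, 9.50 in nucleus), and VARS2 hardly did (22.8 and 24.7). The libraries of both overlapped there, as did those of CARS1 in endoderm (32.4 and 37.9). LARS2 was 44.4, 47.6 and 51.1 CPM in hPSC cytoplasm and 152, 184 and 170 in hPSC nucleus, with no overlap. Its log2 ratios were -1.82 ± 0.12 in hPSC (edgeR adjusted p = 1.27e-08), -1.79 in ectoderm, -2.06 in mesoderm and -2.13 in endoderm, and each stayed lower and past the threshold under every alternative run. MARS1 was 275, 331 and 324 CPM in hPSC cytoplasm and 528, 637 and 629 in nucleus, a ratio of -0.95, with -0.93, -1.48 and -1.82 in ectoderm, endoderm and mesoderm. VARS1 (valine) had ratios of -0.82, -0.93, -1.78 and -1.28. VARS2 was lowest of all in endoderm, at 17.6, 23.2 and 20.9 CPM in cytoplasm and 221, 157 and 144 in nucleus (-3.08 ± 0.18, edgeR adjusted p = 2.44e-09), and was -1.91 in hPSC, -2.04 in mesoderm and -0.35 in ectoderm.

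On the other side, NARS1, the asparaginyl-tRNA synthetase, was higher in cytoplasm in hPSC (269, 245 and 220 against 120, 122 and 121 CPM; 1.01 ± 0.15), ectoderm (1.00) and endoderm (1.82). Its cytoplasm and nucleus libraries did not overlap. In endoderm nucleus NARS1 was 10.3, 31.2 and 28.9 TPM and TARS1 9.8, 28 and 29.2, with repeat 1, a library that stood apart, lowest for both. RARS1 was 104, 124 and 117 CPM in hPSC cytoplasm against 52.5, 48.5 and 51.3 in nucleus (1.18 ± 0.19), and TARS1 was higher in cytoplasm in hPSC (0.97), ectoderm (0.39, a call lost without ectoderm cytoplasm repeat 1, at 0.34) and endoderm (1.96). NARS2 and RARS2 were higher in cytoplasm in hPSC (0.96 and 0.82), endoderm (1.42 and 1.18) and mesoderm (0.95 and 1.06), and the mesoderm signs turned with TPM (-0.14 and -0.05). On Ensembl-listed transcripts alone RARS2 in endoderm (0.53) and NARS2 (0.52) and RARS2 (0.34) in mesoderm did not pass. TARS3 was higher in cytoplasm in hPSC (0.72, not passing with TPM at 0.24), ectoderm (0.57) and endoderm (1.55).

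The cytoplasm to nucleus ratio itself differed from that of hPSC (edgeR interaction term) in 17 of 38 genes in ectoderm, 3 higher and 14 lower, where 51.9% of all genes differed, 27.4% higher and 24.5% lower. With TPM the ectoderm split was 8 higher and 2 lower. The 4 cytoplasmic mRNA controls (GAPDH, ACTB, EEF1A1 and RPLP0) were also all called lower in ectoderm, from -2.07 to -1.25. In endoderm none of the 4 was called, and in mesoderm 2 were called higher. The part of such a wider shift in the synthetase ratios was not tested. In endoderm 13 differed, 7 higher and 6 lower, against 37.9% of all genes, 19.6% higher and 18.3% lower, or 14 and 2 on total counts and 15 and 0 with TPM. In mesoderm 9 differed, all of them lower, against 25.6% of all genes, 18.8% higher and 6.89% lower, and total counts gave 21 lower and TPM 34 lower, with none higher. The share of synthetase genes that differed was below the share of all genes in all 3 lineages. VARS2 differed in opposite directions, by 1.71 on the log2 scale in ectoderm and by -1.08 in endoderm, where the call was lost with TPM (-0.41) and on Ensembl-listed transcripts (-1.30, edgeR adjusted p = 0.244).

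Between chromatin and nucleoplasm 14 genes differed in hPSC (3 higher on chromatin, 11 lower; background 30.6%, with 17.1% higher and 13.5% lower), 23 in ectoderm (7 and 16; background 43.2%, with 21.5% and 21.7%) and 27 in endoderm (5 and 22; background 53.6%, with 22.9% and 30.7%). The lean to nucleoplasm depended on scaling: total counts gave 4 and 6, 9 and 9, and 15 and 7, and TPM gave 20 and 1, 17 and 0, and 11 and 6. Ectoderm on Ensembl-listed transcripts gave 8 and 8. VARS2 was higher on chromatin in all 3 cell types. It was 144, 144 and 253 CPM on hPSC chromatin and 75.7, 77.6 and 70.5 in nucleoplasm (1.28 ± 0.19), and 262, 283 and 273 against 111, 93.2 and 122 in ectoderm (1.33 ± 0.11, edgeR adjusted p = 4.81e-06). In endoderm (1.18) it did not pass on Ensembl-listed transcripts. SARS2 was called higher on chromatin in all 3 as well, at 55.2, 57 and 62.5 against 23.5, 23.9 and 22.9 CPM in endoderm (1.31).

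The genes lowest on chromatin relative to nucleoplasm were EPRS1 and IARS2 in endoderm. EPRS1 was 156, 165 and 146 CPM on chromatin and 718, 625 and 648 in nucleoplasm (-2.09 ± 0.15, edgeR adjusted p = 3.86e-08). IARS2 was 148, 119 and 106 against 586, 596 and 621 CPM (-2.27 ± 0.18, edgeR adjusted p = 1.06e-07). Neither pair of groups came near overlap. In TPM, endoderm EPRS1 was 168 in nucleoplasm, 61.8 on chromatin and 31.7 in nucleus, and IARS2 was 214, 69.7 and 74.6. Nucleoplasm was thus also far above the nucleus libraries for both genes. EPRS1 was also lower on chromatin in ectoderm (-0.95) and in hPSC, where 187, 178 and 68.5 CPM on chromatin stood against 279, 260 and 277 (-0.91) and where hPSC chromatin repeat 3 gave the lowest value. The hPSC call was lost without nucleoplasm repeat 1 (-0.89) or 3 (-0.90), and with TPM neither the hPSC (-0.46) nor the ectoderm change (-0.27) passed.

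The third question was whether the transcripts counted are listed in Ensembl. The assemblies held 80 isoforms of the 38 genes in hPSC (12 unlisted), 117 in ectoderm (41), 93 in mesoderm (23) and 70 in endoderm (11). Assemblies also differed in size, from 30409 transcripts in endoderm to 54325 in ectoderm. For the cytosolic class, unlisted isoforms took at most 0.491% of counts in the mean of any group. Single members held more: CARS1 had from 17.8 to 39.1% of its mesoderm cytoplasm counts on them (mean 25.8%), and RARS1 a mean of 10.6% on ectoderm chromatin. For the mitochondrial class they took from 5.97% in endoderm nucleoplasm to 34% in ectoderm chromatin, against 23.6% in ectoderm cytoplasm. TARS3 had 58.5% on unlisted isoforms in ectoderm chromatin and 24.4% in ectoderm cytoplasm, and 0 in the other cell types, and all AARS2 counts of hPSC were on unlisted isoforms.

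**Figure D5:**
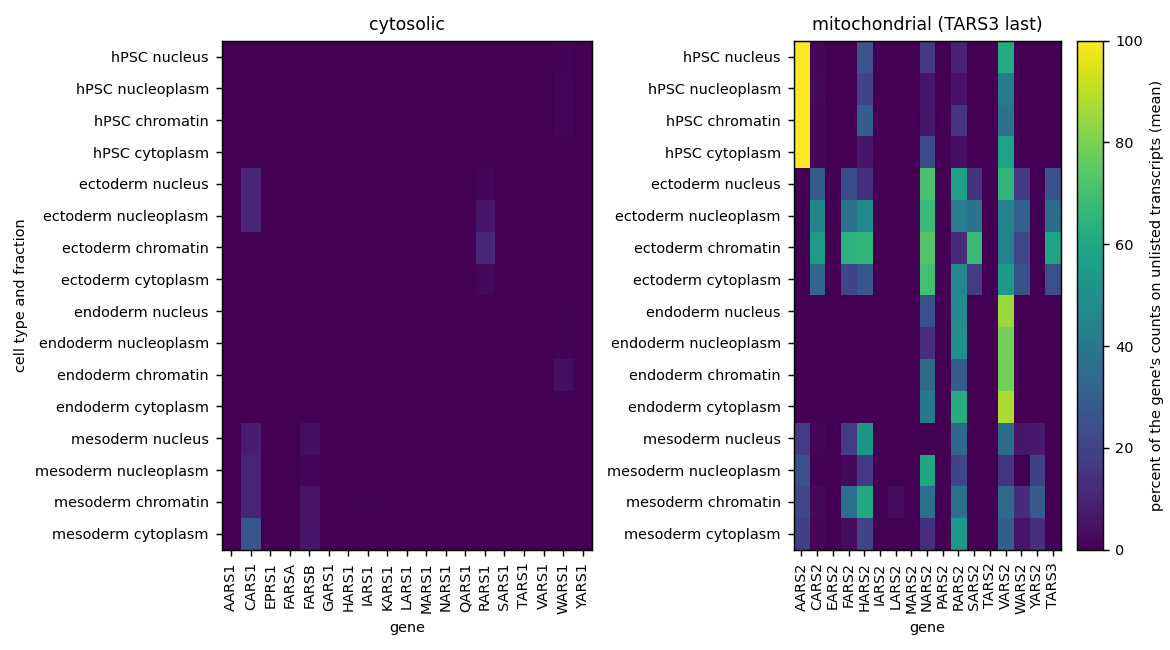
Percent of a gene's counts on isoforms with no Ensembl transcript, for 36 genes (columns) by group (rows), as the mean of the group's libraries. Mitochondrial genes hold most of the signal, and their class mean was highest, at 34%, in ectoderm chromatin. TARS3, outside that class, had 58.5% in ectoderm chromatin.

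The leading isoform differed between fractions in all libraries for a few mitochondrial genes. Among cytosolic genes it did so for WARS1, between mesoderm cytoplasm and the 1 mesoderm nucleoplasm library. SARS2 in ectoderm had from 59.8 to 74.2% of its chromatin counts on an unlisted isoform that took from 12.5 to 20.2% in cytoplasm and from 6.36 to 19.2% in nucleus, where ENST00000221431.11 led. HARS2 in ectoderm had from 58.9 to 73.7% of its chromatin counts on another unlisted isoform, against 10.2 to 20.1% in nucleus. VARS2 in hPSC had ENST00000321897.9 in front on chromatin (46 to 62.9%) and an unlisted isoform in front in cytoplasm (42.5 to 62.1%). RARS2 in endoderm had ENST00000369536.10 in front on chromatin (55.9 to 70.3%) and an unlisted isoform in front in cytoplasm (52.8 to 61.1%). SARS2, HARS2 and VARS2 are the genes with the most shared exon bases among the 17, and assigning reads between overlapping genes was not tested.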

How the data were processed

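RNA of 4 subcellular fractions of H1 cells and 3 derived lineages was sequenced. The authors deposited, per transcript, whole counts and TPM for each cell type's own assembly (made with RSEM and STAR on hg38, per the submitters' processing notes; no versions are given in the sources used here, and the whole counts may be rounded estimates). Of the deposited columns, 1 matched no sample and was not used. Nucleus columns were matched by elimination of the other 3 fraction codes, and the mesoderm nucleoplasm column, numbered 3 where its sample is titled repeat 1, by group only. Counts were summed per Ensembl gene, and between 0.277% and 9.6% of a library's counts had no Ensembl gene and were left out. Lineages were compared over genes present in all 4 own tables, where assembly and cell type change together.

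edgeR 4.0.16 (R 4.3.3; TMM scaling, filterByExpr with a minimum count of 10, quasi-likelihood F test, two-sided, Benjamini-Hochberg over all genes tested, threshold 0.05) gave all log2 changes, standard errors and adjusted p-values. CPM values are TMM-scaled within each fit. The deposited TPM are the authors' values, summed per gene. Alternatives were total counts without TMM, DESeq2 1.42.0, no filter, limma 3.58.1 on log2(TPM + 1) for genes with a mean TPM of at least 1, Ensembl-listed transcripts only, a combined assembly (ectoderm), a replicate block, and 90 fits that each left out 1 library. The edgeR steps were tested on data simulated from the hPSC counts, with few genes changed, equally in both directions, and the same spread for all. That setting is simpler than these libraries. It cannot show how the fits behave where many genes differ or repeats stand apart. Locations and exon overlaps come from GENCODE 29 (GRCh38).

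The members, the gene lists (complex scaffold, amidation and formylation, proofreading, amino acid response, complex synthetases, genes of both compartments, lineage markers, fraction controls) and the rules were chosen with earlier results of these data known. Named in each comparison were up to 3 rises and 3 falls per class among members called, at a mean of at least 10 CPM and without overlap of libraries; the complex, GARS1, KARS1 and the ends of the TPM order could be named anywhere. Members named because a count held 5 or fewer, or because they were called in every cell type, were chosen after their values were seen. Single values of some members are not reported here; all members entered the counts, medians and sums.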

Additional observations from a re-analysis of the deposited data

Results flagged for a closer look

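These are members whose cytoplasm to nucleus ratio differed between a lineage and hPSC by a test of that difference (edgeR interaction term, adjusted p under 0.05), as log2 differences of the ratios. In ectoderm 17 of 38 differed (3 higher, 14 lower). The 4 cytoplasmic mRNA controls were all lower there as well, from -2.07 to -1.25. Among genes with a mean of at least 10 CPM, those lower by the most in the cytosolic class were KARS1 (-1.06), SARS1 (-1.03) and YARS1 (-0.98), and in the mitochondrial class WARS2 (-1.55), PARS2 (-1.05) and EARS2 (-0.66). FARS2, at a mean of 9.06 CPM, was also lower (-0.96). With TPM the SARS1 (-0.47), YARS1 (-0.43), PARS2 (-0.46) and EARS2 (-0.10) calls were lost. VARS2 (1.71), IARS2 (0.67) and AARS2 (0.50) were higher. The IARS2 and AARS2 calls were lost on leaving out single libraries, and that of IARS2 also on total counts (0.75, edgeR adjusted p = 0.0682).

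In endoderm 13 differed (7 higher, 6 lower). TARS1 (1.05), LARS1 (0.91), NARS2 (0.55) and TARS3 (0.91) were higher. For each of them endoderm nucleus repeat 1 held the lowest nucleus TPM. TARS1 was 9.8, 28 and 29.2 TPM over the 3 repeats, LARS1 17.9, 50.9 and 46.2, NARS2 5.53, 8.24 and 8.96, and TARS3 1.15, 3.1 and 2.28. QARS1 (-0.88), VARS1 (-0.87), EPRS1 (-0.67), VARS2 (-1.08), AARS2 (-1.02) and CARS2 (-0.51) were lower. Without endoderm nucleus repeat 1, which stood apart, VARS1 was -0.49 and CARS2 -0.40, and neither passed. Total counts without TMM gave 14 higher and 2 lower, and TPM 15 higher and 0 lower, so none of the 6 lower calls held with TPM.

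In mesoderm 9 differed, all lower, against 21 lower on total counts and 34 lower with TPM. EPRS1 (-1.18), RARS1 (-1.0) and TARS1 (-0.99) were lowest in the cytosolic class. MT-CO1 was 16911 TPM in mesoderm cytoplasm and 6998 in nucleus, the reverse of hPSC (1156 and 43703), and its part in these differences was not tested.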

How the results depend on the processing

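Counts of called members stayed within 1.5 times of the reported ones under DESeq2, no filter, Ensembl-listed transcripts, the replicate block and the combined assembly. The limma fit to TPM gave 10 for ectoderm and 33 for mesoderm cytoplasm against nucleus, 17 for endoderm chromatin against nucleoplasm, 8 for endoderm cytoplasm and 8 for mesoderm chromatin against hPSC, and 10 and 34 for the ectoderm and mesoderm differences in cytoplasm to nucleus ratio; total counts without TMM gave 21 for the last. Signs turned with TPM for IARS2 (0.037) in hPSC and YARS2 (0.33) in ectoderm, chromatin against nucleoplasm, and for SARS1 (-0.56), KARS1 (-0.61), FARSB (-0.61), RARS2 (-0.045) and NARS2 (-0.14) in mesoderm cytoplasm against nucleus. CARS2 turned in the endoderm ratio difference with TPM (0.030) and total counts (0.016), and on ectoderm chromatin against hPSC with Ensembl-listed transcripts (-0.15). Total counts moved the median of all genes by 0.35 and 0.72 for cytoplasm against nucleus in ectoderm and endoderm and by 0.62 for endoderm chromatin against nucleoplasm; the cause of the turned signs was not tested.

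Leaving out 1 library at a time gave, for cytoplasm against nucleus, 27 to 30 called in hPSC, 20 to 25 in ectoderm, 25 to 31 in endoderm and 17 to 20 in mesoderm. For chromatin against nucleoplasm it gave 10 to 16 in hPSC, 18 to 22 in ectoderm and 22 to 26 in endoderm. Against hPSC it gave 31 to 34, 15 to 24 and 28 to 32 in ectoderm, endoderm and mesoderm cytoplasm and 26 to 30, 16 to 20 and 15 to 20 on chromatin, and for the ratio differences 14 to 18, 10 to 18 and 7 to 11. The 24 for endoderm cytoplasm came without hPSC cytoplasm repeat 1. Of the 146 named values, none reversed on leaving out a library, and 74 of 1008 such fits lost the call.

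The labels state no pairing of repeat numbers, and no comparison had every same-numbered correlation above 0.1. With 3 libraries a group, that cannot show that repeats were unpaired. In ectoderm chromatin against nucleoplasm the same-numbered correlations (0.04 to 0.085) all lay above the others (-0.057 to 0.023). With the replicate block, all 146 named values kept their direction and 141 their call, and the ectoderm and mesoderm cytoplasm counts were 33 and 31. Relative to all genes, the cytosolic median in cytoplasm stayed between -1.19 and -0.92 in ectoderm and between -1.03 and -0.93 in mesoderm over the 12 settings run. With 3 libraries a group, changes near 0.3 on the log2 scale were often lost without 1 of them.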
